A study of Mus musculus with 13 samples.

Results

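The regions examined were the H3K27ac peaks in 4 windows of the mouse genome named for a pair of FoxO transcription factors, Foxo3 and Foxo1, and a pair of genes of muscle protein breakdown, Fbxo32 and Trim63. A peak belonged to a window when it overlapped it by at least 1 base, and the windows were set by position alone, with no measured value. On the build mm9 the Foxo3 window lay on chromosome 10 at 41880000 to 42020000, the Foxo1 window on chromosome 3 at 52050000 to 52175000, the Fbxo32 window on chromosome 15 at 57990000 to 58065000 and the Trim63 window on chromosome 4 at 133850000 to 133905000. They held 610 of the 1117291 peaks in 12 libraries. Merged where they overlapped, these peaks formed 94 of the 211369 regions of the series, with 39 in the Foxo3 window, 12 in Foxo1, 30 in Fbxo32 and 13 in Trim63. No mm9 annotation was used here, so a region is tied to a gene only by its window, and exons, introns and start sites were not placed. In the RefSeq gene table of another build, GRCm38.p6, the neighbouring protein-coding genes are Armc2 and Afg1l for Foxo3, Maml3 and Cog6 for Foxo1, Wdyhv1 and Klhl38 for Fbxo32, and Pdik1l and Slc30a2 for Trim63, and a peak in a window may act on a neighbour.

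All libraries came from C2C12, a mouse myoblast line that fuses into myotubes when serum is lowered, and measured H3K27ac, acetylation of histone H3 at lysine 27, by chromatin immunoprecipitation and sequencing. Unedited (wild-type) cells were taken 24 h before the switch to differentiation medium, at the switch, and 6, 12, 24, 48 and 72 h after it. The 5 edited lines, all at 48 h, were made with CRISPR/Cas9: a Myod1 knockout, a line without hotspot H1, a line without H3, and lines in which H3 was removed from cells already lacking H2 (H23) or H4 (H34). H1 to H4 are genomic hotspots whose interaction, mediated by MyoD and FoxO3, is the subject named in the title of the study, and their positions were not used here. Each condition had 1 library, so no test between conditions could be run, and the number of clones behind a line was not given in the sources used here. The CRISPR control of the 48 h series was not analysed here, and the wild-type library at 48 h was the reference for the edited lines. The labelled cell line was not checked against marker genes, nor the Myod1 edit against its gene, since a list of acetylated regions without an annotation checks neither.

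FoxO factors are forkhead proteins that insulin and growth factor signalling, acting through the kinase Akt, keeps out of the nucleus. When that signal is weak they enter the nucleus, and in skeletal muscle they switch on the atrophy programme. Fbxo32 encodes atrogin-1 (MAFbx), the substrate-binding part of an SCF ubiquitin ligase, and Trim63 encodes MuRF1, a RING ubiquitin ligase of the sarcomere. Both ligases mark muscle proteins for the proteasome and are the best known FoxO targets in muscle. H3K27ac marks active promoters and enhancers, and Myod1 encodes MyoD, the bHLH factor that binds E-box sequences in muscle genes.

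The promoter sequences of 3 of the 4 genes were in the RefSeq table (build GRCm38.p6). They are shown because they hold, or do not hold, certain letters that these factors can bind. The FoxO core TGTTTAC (or GTAAACA on the other strand) and the E-box CAGCTG, which reads the same on both strands, were searched in the 250 bases before the start, and matches are in capitals. The Trim63 stretch is chr4:134314870-134315119 on the plus strand, the Foxo1 stretch chr3:52268087-52268336 on the plus strand and the Foxo3 stretch chr10:42276696-42276945 on the minus strand, in a build whose positions cannot be set beside the mm9 peaks.
Trim63 promoter: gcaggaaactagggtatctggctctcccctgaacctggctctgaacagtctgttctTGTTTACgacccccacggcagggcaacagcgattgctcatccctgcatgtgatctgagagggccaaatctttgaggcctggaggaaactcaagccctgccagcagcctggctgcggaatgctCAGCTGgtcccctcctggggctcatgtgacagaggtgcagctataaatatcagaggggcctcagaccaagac
Foxo1 promoter: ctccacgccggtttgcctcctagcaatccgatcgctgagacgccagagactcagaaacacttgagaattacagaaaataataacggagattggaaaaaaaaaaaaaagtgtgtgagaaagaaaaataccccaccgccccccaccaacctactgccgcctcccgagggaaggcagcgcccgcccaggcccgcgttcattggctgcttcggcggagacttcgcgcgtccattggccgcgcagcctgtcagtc
Foxo3 promoter: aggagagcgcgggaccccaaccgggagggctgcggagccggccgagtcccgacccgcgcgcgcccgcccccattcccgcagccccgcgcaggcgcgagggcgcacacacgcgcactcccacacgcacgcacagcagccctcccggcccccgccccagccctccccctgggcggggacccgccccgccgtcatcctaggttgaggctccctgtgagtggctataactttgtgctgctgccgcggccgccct
The Trim63 stretch held 1 FoxO core, first base at -194 from the start, and 1 E-box CAGCTG at -72, with no overlap between them. The Foxo1 and Foxo3 stretches held neither set of letters. Of 32851 promoter entries in the table, 3.17% held the FoxO core and 13.0% the E-box. These are matches of letters and not measured binding sites. Other forms of the E-box or of the FoxO core were not searched.

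The lists differed in length and in how they were cut, which bears on every count below. They ran from 55585 peaks in the Myod1 knockout to 137960 in the H1 line, and covered 18.3 to 81.5 Mb. The 6 lists of the other times had a score with no stated unit. The 6 lists at 48 h gave a −log10 p, whose lowest value was 4.13 in wild-type cells, 4.02 in the Myod1 knockout and 3.01 to 3.03 in the hotspot lines. For wild-type cells the 48 h time and the list format cannot be told apart. Sequencing depth was unknown. Strength is therefore given as a percentile within a library's own list, with 100 the strongest, and cover as the bases under peaks in a window per Mb under peaks in that library. A longer list raises the percentile of a given peak, so where a comparison between libraries turns on it the percentile is also given for equal lists, in which each list is shortened to its 55585 strongest peaks. Wild-type values are listed in time order (-24, 0, 6, 12, 24, 48 and 72 h), and those of the hotspot lines in the order H1, H3, H23 and H34.

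In the wild-type libraries the windows fell into 3 kinds. Foxo3 and Fbxo32 carried at least 14 peaks in each, Foxo1 carried 3 to 7, mostly in a compact pair of regions, and Trim63 had no peak in any of the 7. Peaks in all 12 libraries were found in 3 Foxo3 regions, 2 Foxo1 regions, 3 Fbxo32 regions and no Trim63 region, or 8 of 94, against 7.69% of all regions. Regions with no wild-type peak numbered 14 of 39 in Foxo3, 9 of 12 in Foxo1, 13 of 30 in Fbxo32 and all 13 in Trim63. Together these were 49 of 94, near the 52.1% of all regions.

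**Figure D1:**
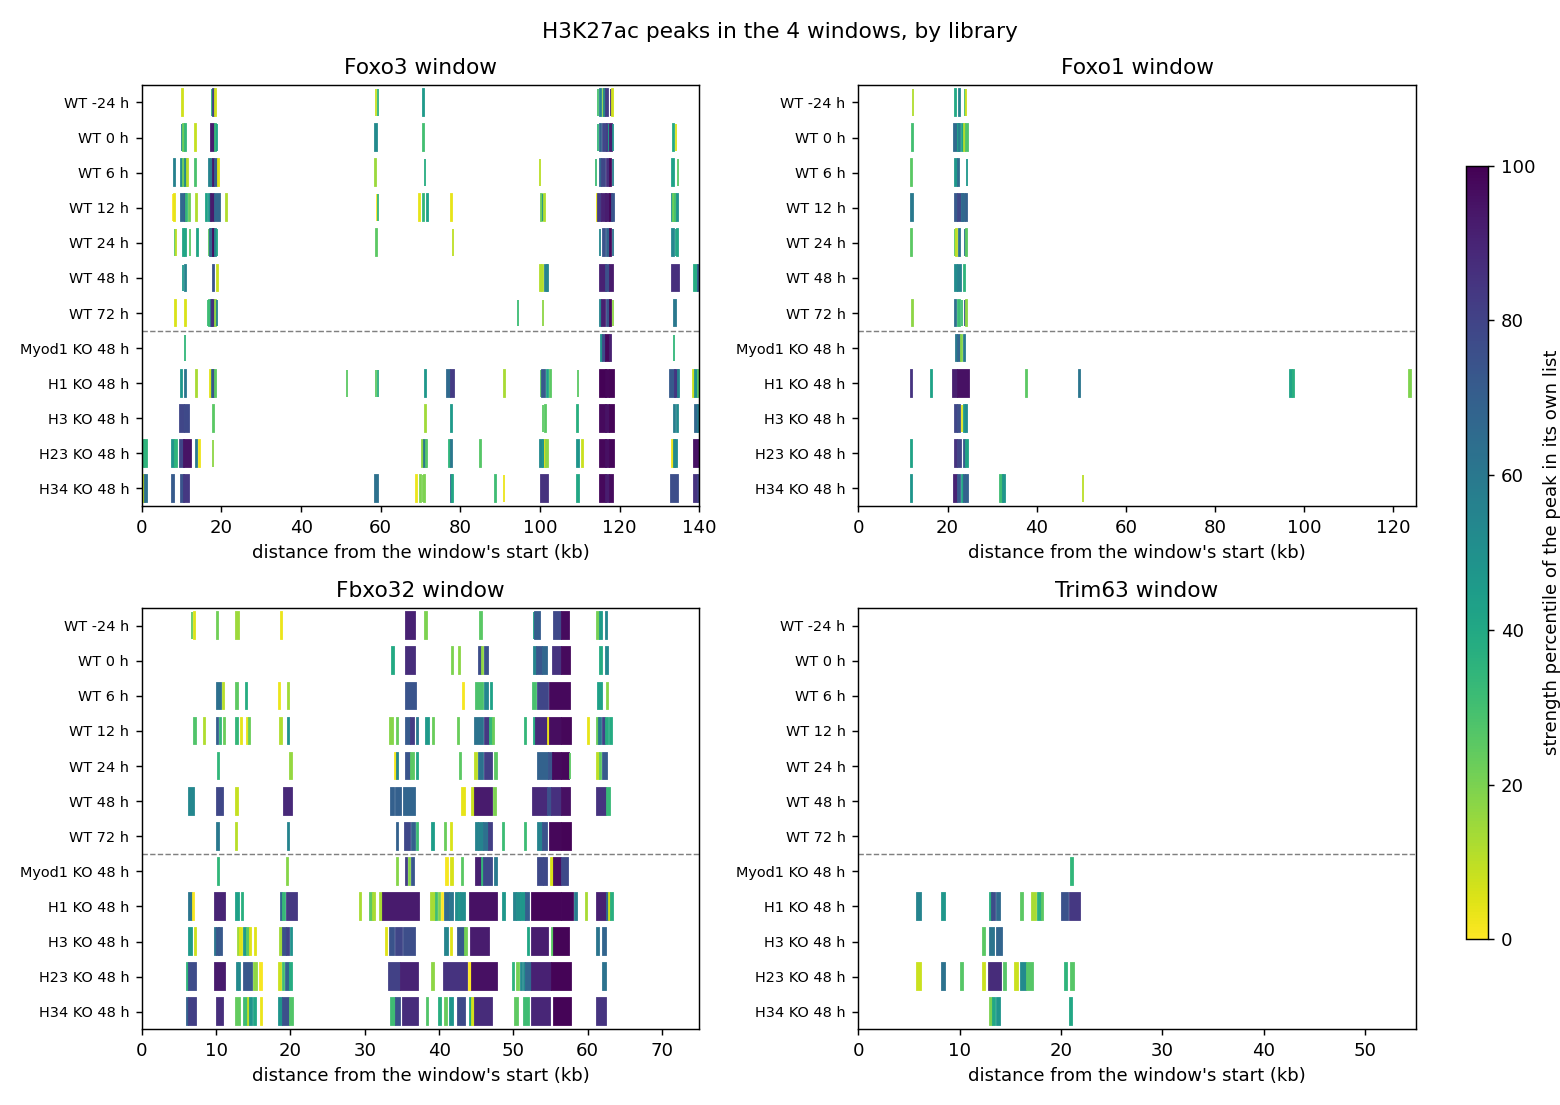
Each bar is an H3K27ac peak at its distance in kb from the start of the window (x axis), with 1 row per library, coloured by the percentile of its strength within its own list. Wild-type (WT) libraries are above the dashed line and edited lines (KO) at 48 h below it. The Trim63 panel is empty above the line, while dark bars in the regions starting at 52.5 kb in Fbxo32 and 117.7 kb in Foxo3 run through all 12 libraries.

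In the Foxo3 window the wild-type peak counts in time order were 14, 18, 22, 31, 22, 14 and 16. The cover per Mb was 119.6, 136, 194, 249, 209, 176 and 175 bases. Both series were highest at 12 h, and with 101331 peaks the 12 h list was also the longest of the wild-type lists. The window's peak count was 2.21 times as high at 12 h as at -24 h, against 1.36 times for the whole lists. Its cover per Mb was 2.08 times as high (log2 1.06), and 4.19% of 5326 tiles of 100 kb with at least 5 peaks at -24 h were at least 2-fold higher. This pair of times was picked after the values were seen. At 72 h the cover was 1.46 times that at -24 h (log2 0.55), below the 2-fold line, while the median tile was lower at 72 h (log2 -0.23).

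The Foxo3 window had 3 neighbouring regions with a peak in all 12 libraries, at 41994515 to 41996553, 41996611 to 41997421 and 41997653 to 41998691. The last of these held the window's strongest peak in 8 of 12 libraries. Its wild-type percentiles in time order were 87.4, 92.1, 98.2, 98.5, 98.4, 93.1 and 98.5. The Myod1 knockout stood at 91.3, and the hotspot lines stood at 99.1, 99.0, 98.6 and 97.2. The region was thus in the upper part of every list, edited or not.

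Other Foxo3 regions had a listed peak at only some of the wild-type times, each with 1 library. The 1 late-gained region, acetylated in both of the last libraries but in neither of the first pair, lay at 41979952 to 41982091. Its percentile was 10.5 at 6 h and 49.4 at 12 h, then 55.9 at 48 h and 17.0 at 72 h, with no peak at 24 h. In the opposite direction, a region at 41938586 to 41939445 had percentiles of 35.8 at -24 h and 52.7 at 0 h and still had a peak at 24 h, with none at 48 and 72 h. A smaller one at 41950583 to 41950835 was last seen at 12 h. With equal lists the late-gained region stood at 43.4 at 48 h and 1.87 at 72 h, with no peak left at 6 h. The smaller early-lost region then had a peak only at -24 h. Late-gained regions numbered 1 of 39 in the window (1.23% of all regions) and early-lost ones 2 of 39 (2.39% of all regions). Of the 14 peaks at -24 h, 9 had a peak at 72 h (64.3%, 95% Wilson interval 38.8 to 83.7), so 5 had none, against 42.7% of all -24 h peaks. Of the 16 peaks at 72 h, 8 had none at -24 h, against 37.4% of all. Such intervals cover counting error only, and neighbouring peaks are not independent.

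The Myod1 knockout had 6 peaks in the Foxo3 window, the fewest of the 12 libraries, covering 1837 bases against 8012 in wild-type cells at 48 h. Of the 14 wild-type peaks, 8 had no knockout peak, against 57.5% of all wild-type peaks. The cover per Mb was 100.3 in the knockout and 176 in wild-type cells (log2 -0.81). That is less than a 2-fold difference, and 28.5% of 5617 tiles were lower by at least 2-fold. What remained in the knockout included all 3 core regions, at percentiles of 78.1, 97.8 and 91.3.

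A pair of adjoining Foxo3 regions differed between the H1 line and the other edited lines. The first, at 41897416 to 41898248 and 17.4 kb from the window's start, was strong throughout the wild-type series. Its wild-type percentiles were 79.7, 92.3, 94.2, 93.0, 96.6, 73.9 and 86.6. The H1 line stood at 74.6, the H3 line at 25.7 and the H23 line at 16.8, while H34 and the Myod1 knockout had no peak. With equal lists the 48 h wild-type percentile was 66.5 and that of H1 37.0, and no other edited line had a peak there. H1 was thus the only edited line with the region in its shortened list, at a lower percentile than wild type. This region was singled out after its values were seen. In the full lists, a percentile in H1 at least 40 points above each line without H3 was found in 1 of 10 Foxo3 regions with a wild-type and an H1 peak, and in 5.96% of 42306 such regions over the genome (5.61% also without a knockout peak). The second region, at 41898289 to 41899627, had percentiles from 7.29 to 70.4 in the 7 wild-type libraries and 25.2 in H1, and no peak in any other edited line. Regions acetylated in wild-type cells at 48 h and in H1 but in none of the 3 lines without H3 made up 1.23% of all regions. This second region was the only one of the 94 (1.06%) with that pattern. Within it the wild-type peak at 48 h and the H1 peak did not overlap each other, and with equal lists neither was left. Counted by overlapping peaks, 0 of 14 Foxo3 peaks and 1 of 17 Fbxo32 peaks had this pattern, against 4.74% of all wild-type peaks. The Fbxo32 peak had no knockout peak either, as had 4.6% of all.

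Over the whole Foxo3 window the hotspot lines had more peaks than wild-type cells, with 28, 15, 28 and 22 against 14. Their covers per Mb were 168, 125, 173 and 185, against 176 in wild-type cells, all within 2-fold. Without scaling, 11818, 7306, 14124 and 13530 bases were covered, against 8012. Of the tiles, 11.6, 17.8, 14.6 and 13.0% were at least 2-fold lower in these lines and 4.56, 5.27, 6.12 and 5.11% at least 2-fold higher. Peaks outside every wild-type peak numbered 6 of 28 in H1 (37.7% of all H1 peaks), 1 of 15 in H3 (31.9%), 9 of 28 in H23 (42.9%) and 7 of 22 in H34 (38.4%). The knockout had 0 of 6 (11.3%). Wild-type peaks without a peak numbered 3 of 14 in H1 (16.2% of all wild-type peaks), 3 in H3 (26.0%), 1 in H23 (18.2%) and 2 in H34 (18.0%). A region at 41989247 to 41989845 was found in the 4 hotspot lines and in no other library. Its percentiles there were 25.2, 37.1, 48.0 and 40.3, and it was picked after its values were seen. With equal lists no library had a peak in this region.

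The Foxo1 window was the plainest of the 3 acetylated ones. The wild-type peak counts in time order were 5, 7, 4, 6, 6, 3 and 6. All of these peaks lay in 3 regions. The main pair, at 52071184 to 52072138 and 52072300 to 52074804, had a peak in all 12 libraries and held the window's strongest peak in each, the first in 4 and the second in 8. The other, at 52061776 to 52062358, had a peak at every wild-type time but 48 h, at percentiles of 11.9 to 59.6. It stood at 85.0 in H1, 42.0 in H23 and 48.0 in H34. With equal lists it stood at 62.8 in H1 and 26.4 at 12 h, and no other library had a peak there. The window's strongest peak stood at wild-type percentiles of 56.0, 65.4, 65.1, 78.7, 62.5, 55.9 and 74.4. The wild-type values were all below those of the strongest Foxo3 peak, whose lowest was 87.4, so the ranges did not overlap.

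Cover per Mb in the Foxo1 window was 35.1, 59.0, 31.0, 58.0, 35.7, 30.9 and 61.3 in time order, with no steady course. The 72 h value was 1.75 times the -24 h one (log2 0.80). All 5 peaks at -24 h had a peak at 72 h (57.3% of all -24 h peaks). Of the 6 at 72 h, 5 had one at -24 h (62.6% of all 72 h peaks). Each of the 3 wild-type peaks at 48 h was also covered in all 5 edited lines. Of all wild-type peaks at 48 h, 42.5% had a peak in the knockout and 74.0 to 83.8% in the hotspot lines. With 3 peaks the interval of such a share runs from 43.9 to 100%. The window was kept in the knockout, which had 4 peaks, all overlapping wild-type ones. Its cover per Mb was 57.7 against 30.9 in wild-type cells (log2 0.90). Without scaling the direction was reversed, with 1056 bases covered in the knockout and 1401 in wild-type cells (0.754-fold, against 0.403-fold for all covered bases). Of the tiles, 41.7% were higher in the knockout by any amount and 7.66% by at least 2-fold, although 3 wild-type peaks are fewer than the 5 asked of a tile.

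The H1 line stood apart at Foxo1. Its strongest peak was at percentile 95.5 and 2493 bp wide, against 55.9 and a widest peak of 619 bp in wild-type cells at 48 h. The covers per Mb of the 4 hotspot lines were 77.7, 27.5, 26.6 and 52.4. The H1 value was 2.52 times the wild-type one at 48 h (log2 1.33), against 4.56% of the tiles at least 2-fold higher in H1. That wild-type value, 30.9, was the lowest of the wild-type series, which reached 61.3 at 72 h. Its 3 peaks are also fewer than the 5 asked of a tile. The H1 line also had 6 of its 9 peaks where no wild-type library had one, against 37.7% of all H1 peaks. The H34 line had 3 of 9 such peaks (38.4% of all its peaks), and the Myod1 knockout, H3 and H23 had none (11.3, 31.9 and 42.9% of all). In the equal lists the only such peak left was that of H1 at 52099559 to 52099746, at percentile 3.93. With equal lists the strongest Foxo1 peak stood at 88.7 in H1, above the wild-type range of 40.9 to 68.1, and at 77.1 in H34. The H3 line, at 61.3, and the H23 line, at 67.4, lay inside that range, although their full-list percentiles of 79.1 and 85.4 were above the full-list wild-type range of 55.9 to 78.7.

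**Figure D2:**
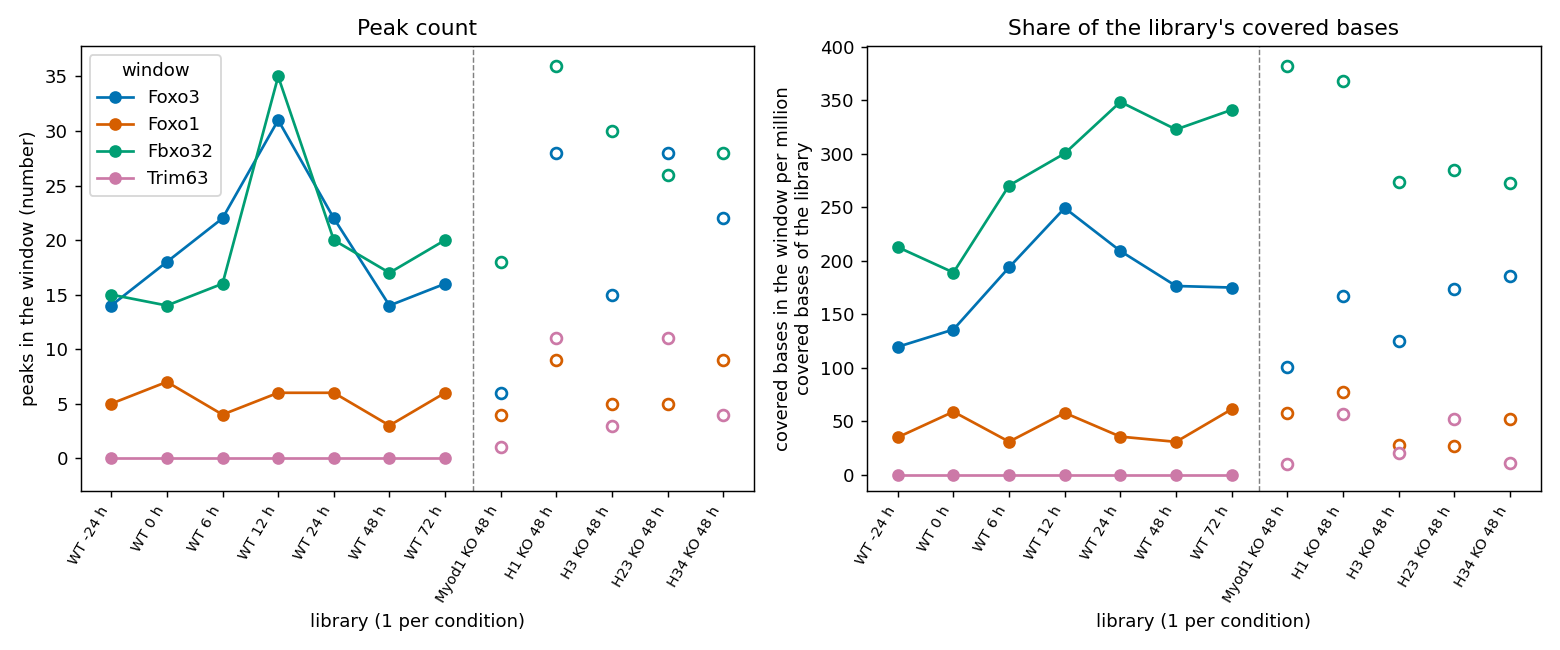
The left panel gives the number of peaks in each window and the right panel the covered bases per Mb covered in the library, with 1 point per library (filled and joined, wild type; open, edited lines at 48 h). Foxo3 is highest at 12 h among the wild-type points of both panels, Fbxo32 is at 323 to 348 on the right from 24 h on, and Trim63 is at 0 in all wild-type libraries.

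The Fbxo32 window was the most densely acetylated of the 4 for its length, with 7.60 to 19.5% of its bases under wild-type peaks against 2.29 to 7.36% in Foxo3. Its wild-type libraries had 15, 14, 16, 35, 20, 17 and 20 peaks in time order. Their covers per Mb were 213, 189, 270.3, 300.2, 348, 323 and 341. The values at -24 and 0 h were thus the lowest of the series, and those from 24 h on the highest. The 72 h value was above the -24 h one by 0.68 on the log2 scale. This was below the 2-fold line that 7.02% of tiles passed upward, and 39.5% of tiles were higher at 72 h by any amount. The number of peaks was 2.33 times as high at 12 h as at -24 h, and the cover 1.41 times, where 41.2% of tiles were higher. Of 15 peaks at -24 h, 8 had none at 72 h (42.7% of all), and of 20 at 72 h, 12 had none at -24 h (37.4% of all).

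The anchor of the Fbxo32 window was the region at 58042532 to 58047994, which held the strongest peak of the window in all 12 libraries. Its wild-type percentiles were 96.9, 97.5, 97.9, 98.2, 98.4, 96.0 and 98.9. The Myod1 knockout stood at 96.0 and the hotspot lines at 98.8, 99.0, 98.9 and 99.0. In wild-type cells 2603, 3634, 4421, 4503, 3913, 4516 and 3756 of its bases lay under peaks. Rank was nearly level, while the acetylated stretch was narrowest at -24 h among the wild-type libraries.

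Beside the anchor, the region at 58034002 to 58037821 was weak in growing myoblasts and strong later. Its wild-type percentiles were 25.8, 76.8, 54.1, 83.7, 81.7, 92.6 and 81.6, and the Myod1 knockout stood at 91.3. The third region found in all libraries, at 58022487 to 58027301, was highest at -24 h among the wild-type libraries, at 90.9, and stood at 69.9 to 87.3 at the later times. The late-gained region of the window, at 58008974 to 58010860, was first listed at 6 h, at percentile 14.1. It reached 88.4 at 48 h and 55.4 at 72 h, and stood at 18.3 in the Myod1 knockout and at 68.6 to 83.9 in the hotspot lines. With equal lists it stood at 85.2 at 48 h, 44.5 at 72 h and 18.3 in the knockout. The hotspot lines then stood at 60.1, 63.7, 29.7 and 43.0, all below wild type at 48 h, and no peak was left at 6 h. No early-lost region was found among the 30.

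In the Myod1 knockout the Fbxo32 window had 18 peaks, against 17 in wild-type cells, and its cover per Mb was 382 against 323 (log2 0.24). Without scaling the direction was reversed, with 6986 bases covered against 14650 (0.477-fold, against 0.403-fold for all covered bases). Of the 17 wild-type peaks, 7 had no knockout peak and 10 had one (58.8%, interval 36.0 to 78.4), against 42.5% with one over the genome. The regions lost included those at 58051197 to 58053380, with a wild-type percentile of 85.3 at 48 h, and at 58002613 to 58003634, with one of 8.60. The first of these had a peak at each wild-type time from -24 to 48 h. It had no peak in the wild-type list at 72 h either. Among regions acetylated in wild-type cells at 48 h, 3 of 9 in Fbxo32, 4 of 10 in Foxo3 and 0 of 2 in Foxo1 lacked a knockout peak, against 53.3% of 50573 genome-wide.

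In the Fbxo32 window all 17 wild-type peaks had a peak in H1 (interval 81.6 to 100%), 13 in H3, 16 in H23 and 15 in H34, so that 0, 4, 1 and 2 were missing, against 16.2, 26.0, 18.2 and 18.0% of all wild-type peaks. The lines had 36, 30, 26 and 28 peaks in that order, and covers per Mb of 368, 274, 285 and 272, all within 2-fold of wild type. On the log2 scale these differed from wild type by 0.19, -0.24, -0.18 and -0.25. Without scaling all 4 lines were above wild type, with 25982, 16009, 23196 and 19867 bases covered against 14650, so the direction in the 3 lines without H3 depended on the scaling. Of the tiles, 42.8, 44.3, 42.0 and 43.6% were higher than wild type by any amount in the 4 lines. Peaks outside every wild-type peak numbered 11 of 36, 6 of 30, 7 of 26 and 7 of 28, and 1 of 18 in the knockout, against 37.7, 31.9, 42.9, 38.4 and 11.3% of all peaks of these lists. A region at 58030727 to 58033777, picked after its values were seen, had percentiles of 1.23 to 25.2 in the 6 wild-type libraries with a peak there and 25.5 in the knockout. The hotspot lines stood at 65.6, 72.6, 85.4 and 77.4. With equal lists they stood at 14.7, 49.1, 67.4 and 46.9, so that H1 was below the knockout, and the 72 h library, at 3.88, was the only wild-type one with a peak left.

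**Figure D3:**
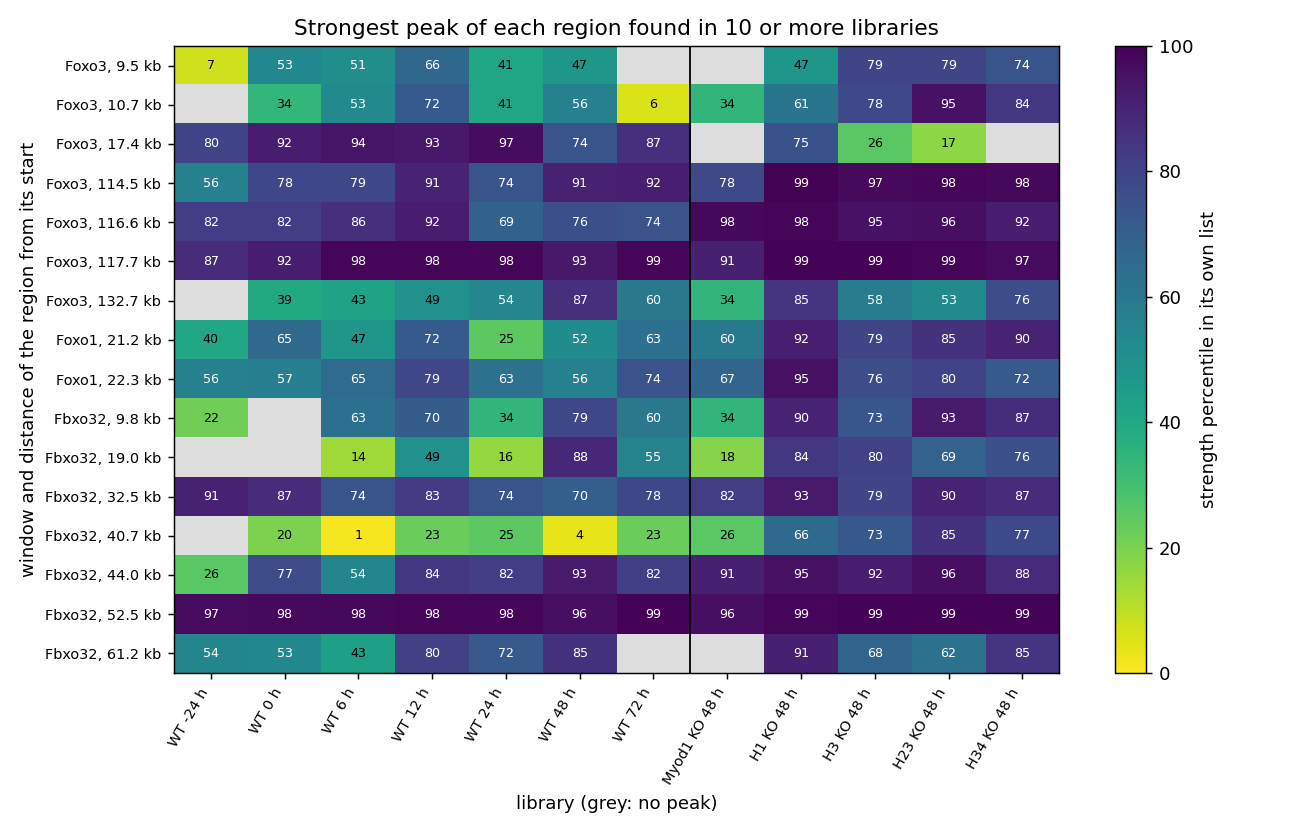
Rows are the regions with a peak in 10 or more of the 12 libraries, named by window and distance in kb from its start, columns are libraries, and the number in each cell is the percentile of the region's strongest peak within its own list (grey, no peak). The Fbxo32 row at 52.5 kb is at 96 or above throughout, and the Foxo3 row at 17.4 kb is at 74 to 97 in wild-type cells and 75 in H1 but at 26 or below, or grey, in the other edited lines.

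Trim63 was the exception among the 4 windows. No wild-type library, from growing myoblasts at -24 h to differentiated cells at 72 h, had a peak in its window, whereas all 5 edited lines did. The Myod1 knockout had 1 peak, H1 had 11, H3 had 3, H23 had 11 and H34 had 4, all of them outside every wild-type peak. The peaks covered 191 bases in the knockout and 4045, 1189, 4243 and 812 bases in the hotspot lines. Of 24125 tiles of 55 kb with a peak in at least 1 library, 17.3% likewise had no peak in any wild-type library. Of the 4165 tiles of 55 kb with a peak in an edited line and no wild-type peak, 7.3% had a peak in all 4 hotspot lines as this window did. At least 11 peaks were found in 0.336% of these tiles in H1 and in 0.912% in H23, at least 3 in 6.07% in H3, at least 4 in 6.24% in H34 and at least 1 in 21.4% in the Myod1 knockout. This background was chosen after the values were seen, and its tiles were not placed on genes.

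The Trim63 peaks were moderate in strength and lay within 1 part of the window, from 133855751 to 133871832. The region shared by the 4 hotspot lines was at 133862882 to 133864194. Its strongest peak had a −log10 p of 44.3 in H23, where it was 1178 bp wide with a fold enrichment of 15.5. The −log10 p was 14.8 in H1, 14.2 in H3 and 8.18 in H34. As percentiles in the order of the lines these were 76.7, 67.9, 87.5 and 48.0. The last region of the group, at 133870859 to 133871832, was the one with the Myod1 knockout peak, of −log10 p 7.24 (percentile 34.1), and it reached 20.7 in H1, 6.09 in H23 and 7.28 in H34. The H3 line had no peak there. The highest percentile of any Trim63 peak was 87.5, whereas the strongest Foxo3 and Fbxo32 peaks of the hotspot lines stood at 98.0 or above.

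The Trim63 peaks of the hotspot lines all passed the wild-type cutoff. There were still 11, 3, 11 and 4 in H1, H3, H23 and H34 when all 48 h peaks had to reach the lowest −log10 p of the wild-type list. When every list was shortened to its 55585 strongest peaks, the lines had 4, 2, 2 and 0, and the knockout still had 1. Joining peaks within 1 kb left 5, 1, 5 and 2 in the lines and 1 in the knockout. The tile shares above count peaks that were not joined. The absence in wild-type cells also depended on the window's edge. With 10 kb added on each side, every wild-type library had peaks, 2, 2, 2, 3, 2, 3 and 2 in time order, against 4 in the knockout and 16, 5, 13 and 7 in the hotspot lines. An unlisted peak at unknown depth does not show that acetylation was absent.

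**Figure D4:**
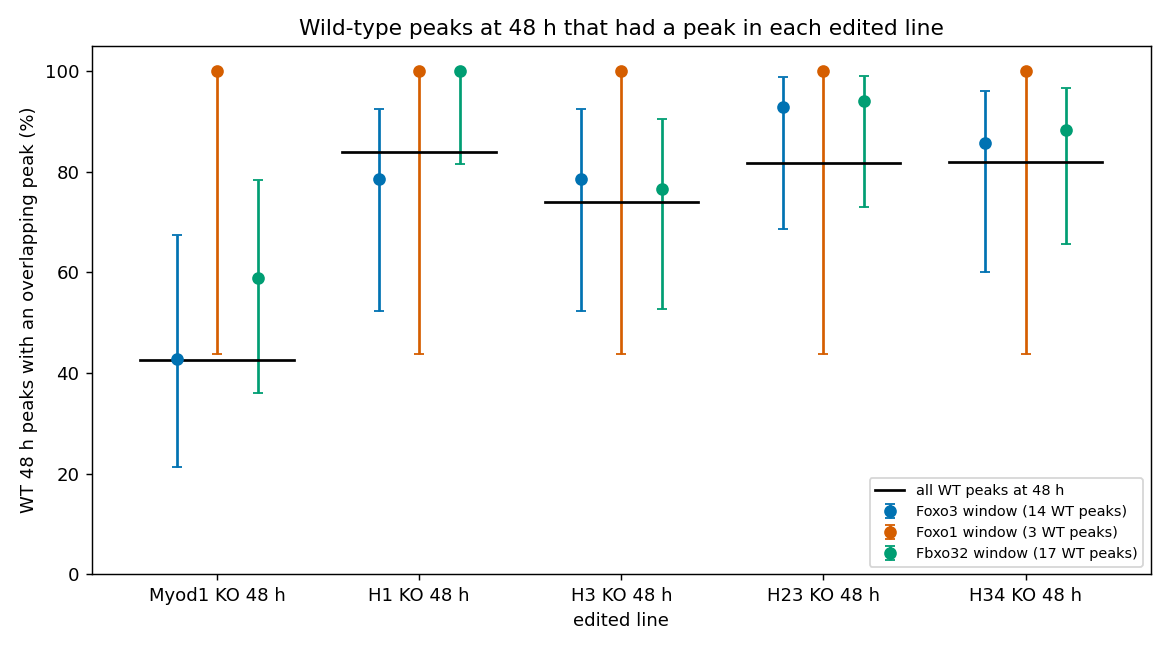
Points give the percentage of wild-type peaks at 48 h in each window that overlapped a peak in each edited line, with 95% Wilson intervals, and black lines give the percentage over all wild-type peaks. Trim63 is not drawn because it had no wild-type peak. The genome-wide line lies within the interval of every Foxo3, Foxo1 and Fbxo32 point except Foxo1 in the Myod1 knockout, where the line at 42.5% is just below the interval's lower end of 43.9%.

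Set side by side, the share of wild-type peaks that kept a peak in the Myod1 knockout was 6 of 14 in Foxo3, 3 of 3 in Foxo1 and 10 of 17 in Fbxo32, against a genome-wide share of 42.5%. That share lay within the intervals of Foxo3 and Fbxo32 and just below the Foxo1 interval, which rests on 3 peaks in adjoining regions. In the 4 hotspot lines the genome-wide share lay within the interval of each of the 3 windows. These comparisons share the wild-type library at 48 h. The intervals cover counting error only, and neighbouring peaks are not independent. No condition had a replicate library, so the intervals cannot test whether an edited line changed a window, whatever the number of peaks. No conclusion on a difference, or on its absence, is drawn from them.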

How the data were processed

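H3K27ac ChIP-seq peak lists of 12 libraries, 1 per condition, were used as deposited. The submitters' processing notes name MACS2 2.1.0 and the build mm9. Aligner, control library, filters and cutoffs are not given in the sources used here. The lists of 6 times (-24, 0, 6, 12, 24 and 72 h) had 5 columns, of which the deposited score has no stated unit. Those of the 48 h libraries, also 6, had 10 columns, read in MACS2's narrowPeak order as the authors' deposited score, fold enrichment, −log10 p-value and −log10 q-value per peak. These are the authors' values for each peak and were used only to rank or filter peaks within a list. Depth was unknown.

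Windows were fixed by mm9 position, and coordinates are given from 1. Peaks were shared when they overlapped by 1 base. Cover was clipped to the window and divided by the library's covered bases. Called ratios were at least 2-fold, and tiles of 100 kb with at least 5 reference peaks gave the background. Regions were named by class and width (the 3 widest found in all libraries and the 2 widest of each other class per window), and others as stated. Members, windows and lists were chosen with earlier results of these data known. Alternatives were a q under 0.001 (score of at least 5), equal lists of 55585 strongest peaks, midpoints inside the window, windows widened by 10 kb, an overlap of 50% of the shorter peak, joining within 1 kb, and strength by fold or width. A common −log10 p floor at 48 h, equal-list percentiles of single regions and the 12 h ratio were added after the data were examined. Overlap counting was tested on simulated data with 20000 regions. Scripts ran in Python 3.11.15 with pandas 2.3.3, matplotlib 3.10.9 and numpy 2.4.6.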

Additional observations from a re-analysis of the deposited data

How the results depend on the processing

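The 42 shares of peaks and cover ratios were recomputed in 252 alternatives, of which 245 stayed within the main value's interval or within 1.5 times of it. Of the rest, 6 came from joining peaks within 1 kb, which leaves few peaks. The share became 100% for wild-type peaks of Foxo3 in H1, H3 and H23, for those of Fbxo32 in H23 and H34, and for 72 h peaks of Foxo1 at -24 h. With equal lists the Foxo3 share in H23 was 63.6%, against 92.9%. Equal lists also took the 12 h over -24 h cover of Foxo1 past 2-fold (log2 1.26, main 0.72) and that of Fbxo32 at 72 h close to it (log2 1.00, main 0.68). The 2-fold calls stayed past the line throughout, from 1.19 to 1.43 for Foxo1 in H1 and from 1.02 to 1.15 for Foxo3 at 12 h. In the Myod1 knockout Foxo3 ranged from -0.81 to -0.69 and Fbxo32 from 0.18 to 0.25. The intervals of shares are wide, so staying inside one is a weak check. The Foxo1 share in H3 fell from 100 to 66.7% with equal lists and was still counted as inside. The common floor left the lists of the other times unchanged, so their comparisons could not move under it. Trim63, without a wild-type peak, had no share or ratio among the 42. Peak counts moved by over 1.5 times in 71 of 288 alternatives, covered bases in 19 of 240 and the strongest peak's percentile beyond its interval in 136 of 268. Other causes of these moves were not tested. Weak peaks depend on depth, which was unknown. No paired analysis was possible because each condition had 1 library and the labels give no replicate numbers.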
